A study of Saccharomyces cerevisiae with 8 samples.

Results

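The 5′ domain of yeast 18S rRNA, taken as nucleotides 1 to 640 of the 1800 nt mature RNA (gene RDN18-2, in the rDNA on chromosome XII), holds 9 of the 55 annotated 2′-O-methylation sites of 18S and 25S rRNA. These are Am28, Am100, Cm414, Am420, Am436, Am541, Gm562, Um578 and Am619, named by base, methyl group and position in 18S. The rule for the domain is its position in 18S, its sites are those that the authors annotated, and 625 of its other nucleotides carry a score and serve as unannotated background. The study measured ribose methylation by RiboMeth-seq in whole cell RNA of exponentially growing Saccharomyces cerevisiae, with the RNA helicases Dbp3 and Prp43 in view. The groups, of 2 biological duplicates (A and B) each, are Delta_Dbp3, labelled as a deletion of the DEAD-box helicase gene DBP3; PRP43_Glu, a strain with the DEAH-box helicase gene PRP43 behind a GAL promoter and labelled for glucose; PRP43_Gal, the same strain labelled for galactose; and WT. A GAL promoter is active in galactose and repressed in glucose, so the sugar and the expression of PRP43 cannot be told apart between PRP43_Glu and PRP43_Gal. The sources used here do not state the time spent in glucose, the remaining Prp43 protein or the sugar fed to the Delta_Dbp3 and WT cultures.

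In RiboMeth-seq, RNA is broken by alkali, and a methyl group on the ribose protects the bond 3′ to it, so few fragments start or end there. The score used throughout is 1 minus the read ends seen at a nucleotide over the read ends predicted from its neighbours, from 0 (no protection) to 1 (full protection), and it averages over all 18S molecules of a culture, older and newly made, which cannot be told apart. In yeast, box C/D small nucleolar RNAs (snoRNAs) base pair with the pre-rRNA and bring the methyltransferase Nop1 to the target ribose. The 5′ domain folds into much of the body of the small ribosomal subunit and is assembled early, while the snoRNAs are still bound, and helicases are known to unwind snoRNA and rRNA duplexes. As general knowledge that comes from neither the labels nor the files, the guides are snR74 for Am28, snR51 for Am100, U14 for Cm414, snR52 for Am420, snR87 for Am436, snR41 for Am541, snR77 for Um578 and snR47 for Am619. No guide is named here for Gm562.

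The RNA around each site is shown because the score of a site is set by its read ends and those at its 6 neighbours to either side. Sites whose printed stretches overlap share a line, but only Cm414 and Am420 lie close enough to share scoring neighbours. Each line runs 5′ to 3′ with 12 nt on either side of a site, as the bases stand in the deposited tables, and capitals mark the methylated nucleotides.
Am28, 18S nucleotides 16 to 40: gccaguagucauAugcuugucucaa
Am100, 18S nucleotides 88 to 112: ugcgaauggcucAuuaaaucaguua
Cm414, Am420 and Am436, 18S nucleotides 402 to 448: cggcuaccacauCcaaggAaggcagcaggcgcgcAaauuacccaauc
Am541, Gm562 and Um578, 18S nucleotides 529 to 590: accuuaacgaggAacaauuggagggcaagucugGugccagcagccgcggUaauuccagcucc
Am619, 18S nucleotides 607 to 631: guuguugcaguuAaaaagcucguag
Adenosine carries 6 of the 9 sites, where adenosine makes up 190 of the 640 nucleotides of the domain. The sites fall into 2 close groups, Cm414 to Am436 and Am541 to Um578, with Am28, Am100 and Am619 standing apart. The stretch with the capital letters of Gm562 and Um578 is among the most conserved parts of small subunit rRNA in all organisms. Cm414 and Am420 lie 6 nt apart, so each is among the neighbours from which the other is scored. Between Am100 and Cm414 lie 313 nt without an annotated site.

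The domain drew 1999501 and 1637341 read ends in Delta_Dbp3 replicates A and B, 590375 and 807904 in PRP43_Glu, 1697049 and 1523325 in PRP43_Gal, and 2143869 and 2209267 in WT. Both PRP43_Glu libraries were the shallowest. The domain is 35.6% of 18S by length and took 40.6% and 43.9% of the 18S read ends in Delta_Dbp3, 34.6% and 36.6% in PRP43_Glu, 40.5% and 33.3% in PRP43_Gal and 47.2% and 49.0% in WT. Both WT shares were the highest, while the PRP43_Gal shares lay on either side of those of PRP43_Glu, and the part of these shares in the scores was not tested. At each site the neighbours predicted at least 253 read ends, both kinds counted together, in every library. Counting error was small beside the gap between duplicates at Am619 in PRP43_Glu, where the 95% Poisson intervals of the replicates were 0.284 to 0.373 and 0.622 to 0.677. These intervals cover counting error only, since reads without molecular identifiers are not independent molecules.

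In WT, mean scores above 0.9 were found at 7 of the 9 domain sites, and the lowest was Am436 at 0.823 ± 0.0267 (SD, n = 2 here and below). The number of sites above 0.9 was 5 in Delta_Dbp3, 3 in PRP43_Glu and 4 in PRP43_Gal. Of all 55 sites, 29 were above 0.9 in Delta_Dbp3, 16 in PRP43_Glu, 43 in PRP43_Gal and 47 in WT. Of the 9 sites in the rest of 18S, the counts were 8, 5, 8 and 8 in that order. The median over the 9 sites was 0.903 in Delta_Dbp3, 0.874 in PRP43_Glu, 0.892 in PRP43_Gal and 0.951 in WT. Over all 55 sites the medians were 0.913, 0.819, 0.943 and 0.964 in the same order of groups. The duplicates differed at the median domain site by 0.0363 in Delta_Dbp3, 0.0208 in PRP43_Glu, 0.0702 in PRP43_Gal and 0.00812 in WT, so the PRP43_Gal pair was the least alike.

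**Figure D1:**
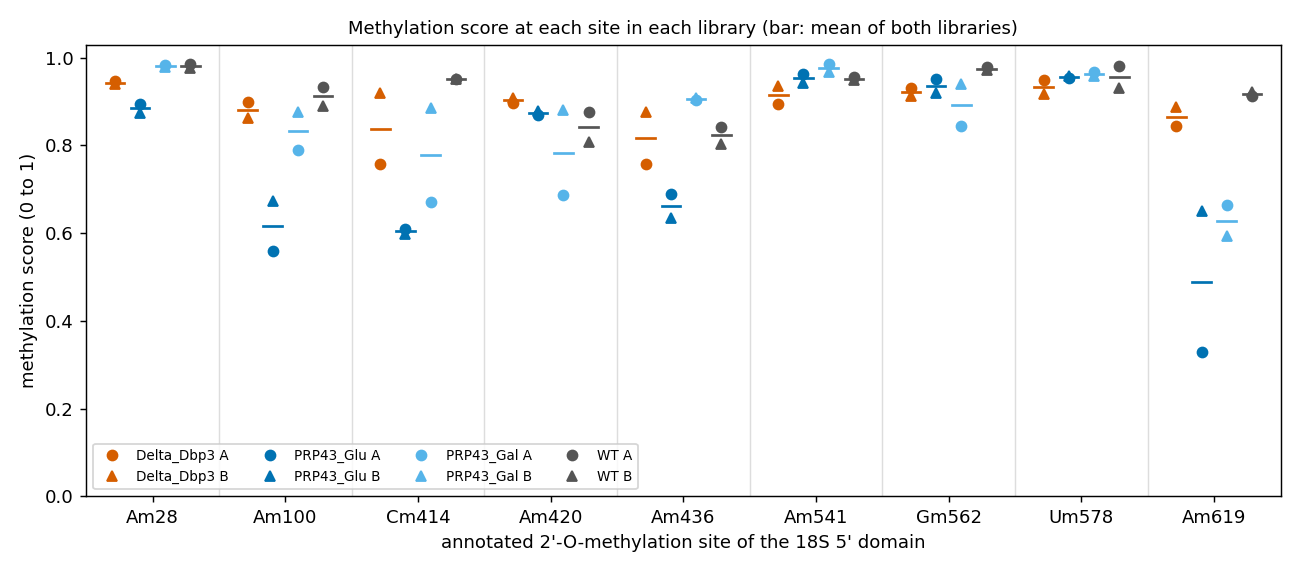
Methylation score (vertical axis, 0 to 1) of the 9 annotated sites of the 18S 5′ domain in each library, with Delta_Dbp3, PRP43_Glu, PRP43_Gal and WT from left to right, circles for replicate A, triangles for replicate B and a bar at the mean of the 2 libraries. At Am28, Am100 and Am436 both PRP43_Glu points lie below both PRP43_Gal points, while at Am541 and Um578 every group mean lies above 0.9.

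In PRP43_Glu, methylation was lower than in PRP43_Gal at 3 of the 9 sites, Am28, Am100 and Am436, and higher at 0 (limma over the 55 sites, Benjamini-Hochberg adjusted p under 0.05). Over all 55 sites 56.4% were called lower, so the share in the domain is not above that background. Both PRP43_Glu libraries lay under both PRP43_Gal libraries at 5 of the 9, those 3 with Cm414 and Am541, and at 70.9% of the 55. The median difference over the 9 sites was -0.0963, beside -0.135 over the 55.

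Am436, the target of snR87, had scores of 0.690 and 0.635 in PRP43_Glu, against 0.904 and 0.909 in PRP43_Gal. Both PRP43_Glu libraries lay well below the PRP43_Gal libraries, which agreed to within 0.00501. The mean was 0.663 ± 0.0389 in PRP43_Glu and 0.906 ± 0.00354 in PRP43_Gal, a difference of -0.244 (95% interval -0.353 to -0.134, limma adjusted p = 0.00461). The fall was present in either kind of read end, at -0.256 from 5′ ends (adjusted p = 0.0152) and -0.213 from 3′ ends (adjusted p = 0.00783).

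Am100, the target of snR51, had scores of 0.559 and 0.673 in PRP43_Glu, against 0.790 and 0.876 in PRP43_Gal. The duplicates were farther apart here than at Am436, in either medium, but the groups did not overlap. The mean was 0.616 ± 0.0806 in PRP43_Glu and 0.833 ± 0.0612 in PRP43_Gal, a difference of -0.217 (95% interval -0.338 to -0.0953, limma adjusted p = 0.0116). The call was lost with edgeR on read ends, from 3′ ends alone (difference -0.214, limma adjusted p = 0.0504) and without PRP43_Gal replicate B, and from 5′ ends the difference was -0.235 (adjusted p = 0.00629).

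Am28, the target of snR74 and the site nearest the 5′ end of 18S, showed the smallest fall of the 3 in score units and the closest duplicates. On log2 odds its fall was the largest of the 3, at -2.76, beside -2.30 at Am436 and -1.67 at Am100. The scores of Am28 were 0.895 and 0.875 in PRP43_Glu, against 0.983 and 0.980 in PRP43_Gal. The mean was 0.885 ± 0.0147 in PRP43_Glu and 0.981 ± 0.00239 in PRP43_Gal, a difference of -0.0963 (95% interval -0.127 to -0.0660, limma adjusted p = 0.00155). The PRP43_Glu libraries were the lowest of all 8 at this site, and its groups did not overlap. The fall came to -0.0448 from 5′ ends and -0.149 from 3′ ends and passed from each (limma adjusted p = 0.0140 and 0.0286).

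At 6 sites the comparison of PRP43_Glu with PRP43_Gal did not pass, and at Cm414, Am420 and Am619 the intervals were wide. Cm414, the target of U14, a snoRNA that also base pairs with 18S for pre-rRNA processing, had 0.610 and 0.599 in PRP43_Glu, against 0.672 and 0.886 in PRP43_Gal. Both PRP43_Glu values were lower, but the PRP43_Gal libraries stood 0.214 apart, and the difference of -0.174 (95% interval -0.384 to 0.0359) had a limma adjusted p of 0.133. It was called without PRP43_Gal replicate A (difference -0.281, adjusted p = 0.0253). Am619, the target of snR47, had 0.330 and 0.650 in PRP43_Glu, against 0.664 and 0.594 in PRP43_Gal. These groups overlap, and the difference of -0.139 (95% interval -0.397 to 0.119, limma adjusted p = 0.312) turned to 0.0211 without PRP43_Glu replicate A and was -0.299 and called without PRP43_Glu replicate B (adjusted p = 0.00421). Am420, the target of snR52, had 0.869 and 0.878 in PRP43_Glu, against 0.686 and 0.881 in PRP43_Gal. PRP43_Gal replicate A alone stood low, and the difference of 0.0903 (95% interval -0.0723 to 0.253, limma adjusted p = 0.305) was -0.00745 without that library and 0.188, called higher, without PRP43_Gal replicate B (adjusted p = 0.0122).

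The sites in the conserved stretch and just before it had means of at least 0.892 in the PRP43 strain, with the lowest at Gm562 in PRP43_Gal. Um578, the target of snR77, had 0.954 and 0.959 in PRP43_Glu, against 0.966 and 0.959 in PRP43_Gal. Its difference of -0.00622 had a narrow interval, from -0.0590 to 0.0466. Am541, the target of snR41, had 0.963 and 0.943 in PRP43_Glu, against 0.987 and 0.968 in PRP43_Gal, a difference of -0.0245 (95% interval -0.0703 to 0.0214, limma adjusted p = 0.312). Gm562 had 0.952 and 0.919 in PRP43_Glu, against 0.844 and 0.940 in PRP43_Gal, with overlapping groups and a difference of 0.0433 (95% interval -0.0410 to 0.128, limma adjusted p = 0.325), which was 0.0917 and called higher without PRP43_Gal replicate B (adjusted p = 0.0245).

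The values of Am541 in PRP43_Gal replicate A and of Gm562 in PRP43_Glu replicate B rest on a correction by the authors. Its form was inferred from their deposited group means, which match the score from 5′ ends alone in those libraries. Am541 in that PRP43_Gal library scored 0.987 from 5′ ends and 0.304 from 3′ ends, and 0.349 from both together. Gm562 in that PRP43_Glu library scored 0.919 from 5′ ends and 0.591 from 3′ ends, and 0.763 from both together. Without the correction the difference between PRP43_Glu and PRP43_Gal was 0.294 at Am541 and -0.0346 at Gm562, turned in sign at each, and limma called neither (adjusted p = 0.280 and 0.802). With edgeR and DESeq2 on read ends, which take no such correction, Am541 was called higher in PRP43_Glu. The deposited values give no other site of the domain such a replacement.

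**Figure D2:**
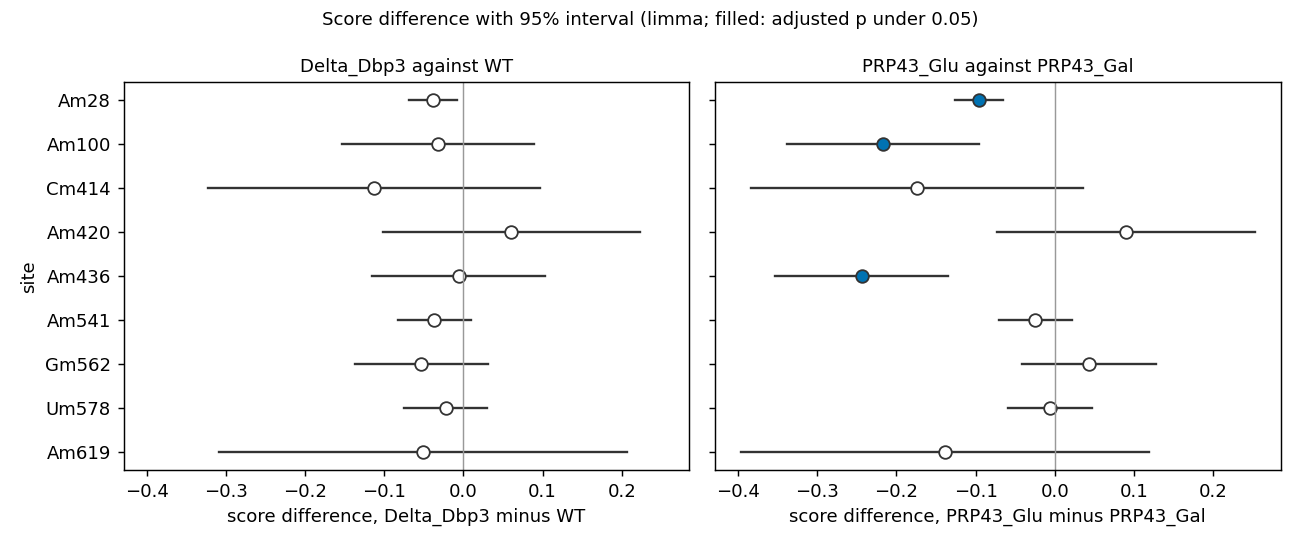
Score difference at each domain site (horizontal axis, score units) with its 95% interval from limma, for Delta_Dbp3 minus WT in the left panel and PRP43_Glu minus PRP43_Gal in the right panel; filled circles passed an adjusted p of 0.05. No circle is filled in the left panel, and Am28, Am100 and Am436 are filled in the right panel at -0.0963, -0.217 and -0.244.

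As general knowledge, snR74 and snR77 are cut from a single long precursor, and snR41 and snR51 from another. In PRP43_Glu against PRP43_Gal, Am28 (snR74) passed at -0.0963 while Um578 (snR77) had -0.00622, and Am100 (snR51) passed at -0.217 while Am541 (snR41) had -0.0245. Each precursor thus supplied a guide of a site that passed and a guide of a site that did not, and the differences between the sites of a pair were not tested.

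Deletion of DBP3 left the domain without a called site, at 0 of 9, where limma called 27.3% of all 55 sites lower. These were 14 of the 37 sites of 25S and 1 of the 9 sites in the rest of 18S. By an unadjusted p under 0.05 there was 1 site, Am28, beside 20 of the 55. DESeq2 on read ends called 2, Am28 and Cm414, edgeR on read ends called Am28, and limma on log2 odds called Am28 and Gm562. How many of the 55 these alternatives called was not counted. At 8 of the 9 sites the mean difference was below 0, as it was at 48 of the 55. The median difference was -0.0368 over the 9 sites, beside -0.0327 over all 55. Delta_Dbp3 and WT did not overlap, with Delta_Dbp3 the lower, at 5 sites, Am28, Cm414, Am541, Gm562 and Am619, and at 69.1% of the 55.

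At Am28 the Delta_Dbp3 scores of 0.946 and 0.940 lay below the WT scores of 0.985 and 0.977. The groups are clear of each other, by more than the gap between either pair of duplicates. The mean was 0.943 ± 0.00478 in Delta_Dbp3 and 0.981 ± 0.00561 in WT, a difference of -0.0380 (95% interval -0.0683 to -0.00765) with a limma adjusted p of 0.0791. The call was made with edgeR (adjusted p = 0.0128), DESeq2 (adjusted p = 0.00249) and log2 odds (limma, adjusted p = 0.0103).

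Cm414 had 0.757 and 0.920 in Delta_Dbp3, against 0.952 and 0.951 in WT. The Delta_Dbp3 libraries lay below WT but far from each other, and the difference of -0.113 (95% interval -0.323 to 0.0974) had a limma adjusted p of 0.384. From 5′ ends alone the sign turned, to 0.0503. The neighbours predicted few such ends there, 48.7 and 101 in Delta_Dbp3 and 110 and 31.5 in WT. Am436, which fell in PRP43_Glu, had 0.757 and 0.877 in Delta_Dbp3, against 0.842 and 0.804 in WT. The WT values sit inside the spread of the Delta_Dbp3 libraries, and the difference was -0.00615 (95% interval -0.115 to 0.103). Am100 had 0.898 and 0.862 in Delta_Dbp3, against 0.934 and 0.891 in WT, and its difference of -0.0321 (95% interval -0.154 to 0.0895) came with overlapping groups.

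The other 5 sites did not pass between Delta_Dbp3 and WT either. Gm562 had 0.931 and 0.912 in Delta_Dbp3, against 0.979 and 0.971 in WT, a difference of -0.0534 (95% interval -0.138 to 0.0309, limma adjusted p = 0.317). Am541 had 0.894 and 0.936 in Delta_Dbp3, against 0.955 and 0.949 in WT, a difference of -0.0368 (95% interval -0.0827 to 0.00898, limma adjusted p = 0.215). At these sites of the conserved stretch and its flank the groups did not overlap but the test was not passed. Um578 had 0.950 and 0.919 in Delta_Dbp3, against 0.982 and 0.931 in WT, with overlapping groups and an interval of -0.0753 to 0.0304. Am619 had 0.843 and 0.889 in Delta_Dbp3, against 0.914 and 0.922 in WT, a difference of -0.0516 with a wide interval of -0.309 to 0.206, from a variance pooled over the 4 groups. Am420 was the single site where both Delta_Dbp3 libraries, at 0.897 and 0.909, lay above both WT libraries, at 0.876 and 0.809, and its difference of 0.0606 did not pass (95% interval -0.102 to 0.223, limma adjusted p = 0.560).

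The PRP43 strain in galactose was set against WT. Strain, promoter and possibly sugar differ together here and cannot be told apart. The library headers differ as well: those of Delta_Dbp3 and WT carry a CR code, whose meaning is not given, and those of PRP43 carry none. The barcodes of the Delta_Dbp3 libraries recur on the PRP43_Glu libraries. None of the 9 sites was called, as at 0% of all 55 sites by limma. At an unadjusted p under 0.05 there was 1 domain site, Am619, beside 5 of the 55. As lower in PRP43_Gal, edgeR on read ends called Am619, log2 odds Gm562 and Am619, and DESeq2 Cm414, Am541, Gm562 and Am619. How many of the 55 each of these called was not counted. The DESeq2 call at Am541 rests on read ends without the authors' correction and runs against the corrected scores, which lay above WT. PRP43_Gal and WT did not overlap at 6 sites, with PRP43_Gal the lower at 4 (Am100, Cm414, Gm562 and Am619) and the higher at 2 (Am436 and Am541). Over the 55 sites PRP43_Gal was the lower without overlap at 43.6%. The median difference was -0.0588 over the 9 sites, beside -0.0140 over all 55.

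Am619 differed most in this comparison. Its mean was 0.629 ± 0.0497 in PRP43_Gal and 0.918 ± 0.00574 in WT, a difference of -0.289 (95% interval -0.547 to -0.0311) with an unadjusted p of 0.0342 and an adjusted p of 0.480 in limma. It was called without either PRP43_Glu replicate. The next was Cm414, at 0.779 ± 0.151 in PRP43_Gal and 0.951 ± 0.000987 in WT, a difference of -0.173 (95% interval -0.383 to 0.0375, limma adjusted p = 0.492). At Am436 the PRP43_Gal mean stood above WT, 0.906 ± 0.00354 in PRP43_Gal and 0.823 ± 0.0267 in WT, a difference of 0.0830 (95% interval -0.0263 to 0.192, limma adjusted p = 0.504). Am28 had 0.981 ± 0.00239 in PRP43_Gal and 0.981 ± 0.00561 in WT, and its interval ran from -0.0301 to 0.0305.

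Against WT, the glucose culture of the PRP43 strain was lower at 5 of the 9 sites, Am28, Am100, Cm414, Am436 and Am619, and higher at 0, where limma called 69.1% of all 55 sites lower. PRP43_Glu was the lower without overlap at 6 of the 9, those 5 and Gm562, and at 92.7% of the 55. Strain, promoter, library headers and possibly medium differ together here and cannot be told apart. The PRP43_Glu libraries are those already set against PRP43_Gal. Am619 differed by -0.428 (95% interval -0.686 to -0.170, limma adjusted p = 0.0128), with 0.490 ± 0.226 in PRP43_Glu and 0.918 ± 0.00574 in WT. Its difference was -0.268 without PRP43_Glu replicate A and -0.588 without PRP43_Glu replicate B. Cm414 differed by -0.347 (95% interval -0.557 to -0.137, adjusted p = 0.0128), with 0.605 ± 0.0078 in PRP43_Glu and 0.951 ± 0.000987 in WT. Am100 differed by -0.296 (adjusted p = 0.00385), Am436 by -0.161 (adjusted p = 0.0195) and Am28 by -0.0961 (adjusted p = 0.00136) in the same limma comparison.

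Without either WT replicate the calls at Cm414, Am436 and Am619 were lost, leaving 2, and without PRP43_Glu replicate B those at Cm414 and Am436, leaving 3. The call at Cm414 was also lost without PRP43_Glu replicate A (limma adjusted p = 0.0505) and from 5′ ends alone, that at Am619 from 3′ ends alone, and that at Am436 with edgeR (adjusted p = 0.0755) and DESeq2 (adjusted p = 0.0677). Am28 and Am100 passed under all 20 alternatives tried for this comparison. Um578 differed by -4.38e-05 and Am541 by 0.000860 between PRP43_Glu and WT, with intervals of -0.0529 to 0.0528 and -0.0450 to 0.0467. Gm562 had a difference of -0.0398 and Am420 a difference of 0.0315, and neither passed (limma adjusted p = 0.332 and 0.695). Gm562 was called lower on log2 odds, and with edgeR and DESeq2 on read ends, which take no correction.

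The difference between Delta_Dbp3 and WT was then set against that between PRP43_Glu and PRP43_Gal at each site, as the Delta_Dbp3 minus WT difference less the PRP43_Glu minus PRP43_Gal difference. This was past the threshold at 2 of the 9 sites, Am28 and Am436, where limma called 41.8% of all 55 sites in either direction. At Am436 the changes of -0.00615 in Delta_Dbp3 and -0.244 in PRP43_Glu were 0.238 apart (95% interval 0.0829 to 0.392, adjusted p = 0.0271). At Am28 the changes of -0.0380 and -0.0963 were 0.0583 apart (95% interval 0.0154 to 0.101, adjusted p = 0.0419). Am100, with -0.0321 and -0.217, did not pass (difference 0.185, limma adjusted p = 0.0869). With the replicate letter as a block 0 of the 9 passed (adjusted p = 0.0533 at Am436 and 0.0689 at Am28), as with edgeR on read ends. DESeq2 called Am436 and, in the opposite direction and without the authors' correction, Am541. In the main limma fit the changes were -0.0124 apart at Am541 and -0.0967 at Gm562, opposite in sign to Am436. Also 0 passed without either WT replicate or without PRP43_Gal replicate A. Without either Delta_Dbp3 replicate 1 passed, Am436, and without PRP43_Gal replicate B 1 other, Gm562. Without PRP43_Glu replicate B the 2 that passed were Am100 and Am619.

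Read ends of the 5′ and 3′ kind give separate scores for a site from the same libraries, and at Am619 and Cm414 they differed widely. At Am619 the low scores of the PRP43 strain were those of 5′ ends, 0.189 and 0.558 in PRP43_Glu, against 0.602 and 0.495 in PRP43_Gal, with 0.868 and 0.902 in WT. From 3′ ends Am619 stood at 0.851 and 0.866 in PRP43_Glu, against 0.787 and 0.935 in PRP43_Gal, with 0.952 and 0.953 in WT. PRP43_Glu minus WT at Am619 was -0.512 from 5′ ends (limma adjusted p = 0.0161) and -0.0940 from 3′ ends (adjusted p = 0.176).

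At Cm414 the weight lay on the other side. From 3′ ends it stood at 0.546 and 0.576 in PRP43_Glu, against 0.654 and 0.879 in PRP43_Gal, with 0.957 and 0.950 in WT. From 5′ ends Cm414 stood at 0.891 and 0.744 in PRP43_Glu, against 0.942 and 0.955 in PRP43_Gal, with 0.891 and 0.968 in WT. The 5′ scores rest on far fewer reads: the neighbours predicted 31.5 to 147 5′ ends per library, against 645 to 3888 3′ ends. PRP43_Glu minus WT at Cm414 was -0.393 from 3′ ends (limma adjusted p = 0.0185) and -0.112 from 5′ ends (adjusted p = 0.120). Am420, 6 nt downstream, had its low PRP43_Gal replicate A value of 0.659 in 3′ ends as well, beside 0.974 from 5′ ends. Leaving annotated sites out of the neighbours, which removes the mutual weight of Cm414 and Am420, changed the PRP43_Glu minus PRP43_Gal difference little, to -0.169 at Cm414 and 0.0836 at Am420.

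**Figure D3:**
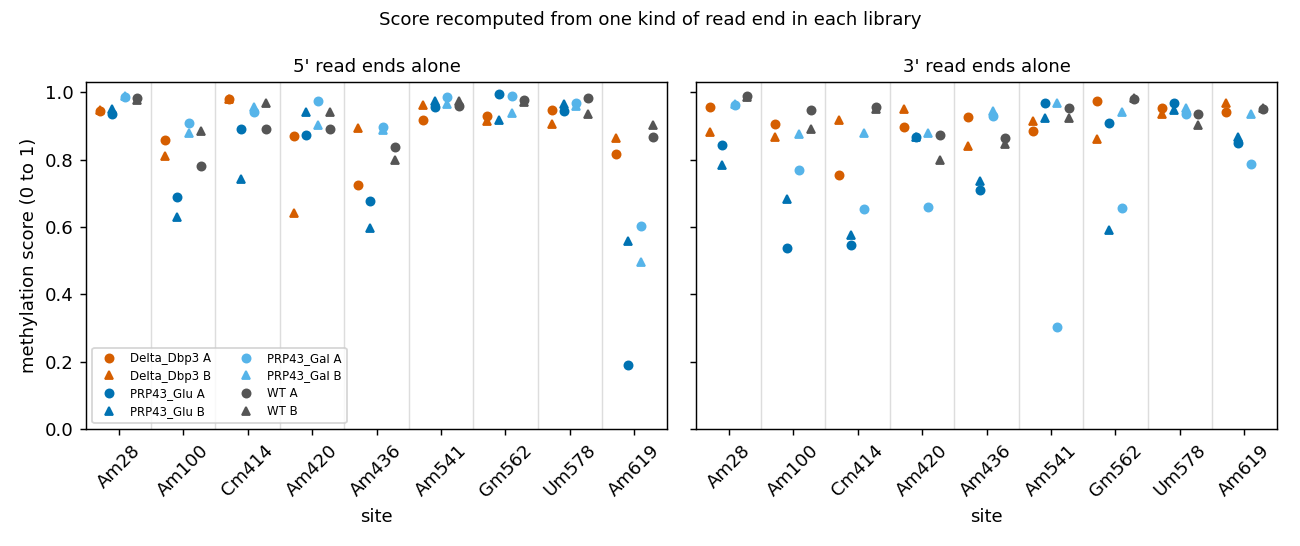
Score of each domain site (vertical axis, 0 to 1) from 5′ read ends alone in the left panel and 3′ read ends alone in the right panel, for each library, with Delta_Dbp3, PRP43_Glu, PRP43_Gal and WT from left to right. The PRP43 points at Am619 are low in the left panel (0.189 to 0.602) and at or above 0.787 in the right, and Am541 in PRP43_Gal replicate A stands at 0.304 in the right panel.

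Outside the annotated sites the domain scored low. The median over the 625 unannotated nucleotides was 0.196 in Delta_Dbp3, 0.0827 in PRP43_Glu, 0.0968 in PRP43_Gal and 0.176 in WT. A score of at least 0.5 in both libraries was reached by 42 of them in Delta_Dbp3, 14 in PRP43_Glu, 21 in PRP43_Gal and 52 in WT. These levels differed more between the PRP43 strain and the other strains, where the library headers differ too, than between PRP43_Glu and PRP43_Gal. By base, guanosines had the highest median, from 0.228 in PRP43_Gal to 0.357 in Delta_Dbp3, and uridines the lowest, at 0.110 in Delta_Dbp3, 0 in PRP43_Glu, 0 in PRP43_Gal and 0.0928 in WT.

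The annotated sites stood mostly, not wholly, above this background. In Delta_Dbp3 the lowest sites were Am436 in replicate A, with 25 of the 625 unannotated nucleotides at or above its score, and Am100 in replicate B, with 0. In PRP43_Glu they were Am619 in replicate A, with 127 nucleotides at or above it, and Cm414 in replicate B, with 5. In PRP43_Gal the lowest was Am619 in both libraries, with 8 and 17 at or above it, and in WT it was Am436 in both, with 2 and 9. The low score of Am619 in PRP43_Glu replicate A thus lay within the range of unannotated positions.

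**Figure D4:**
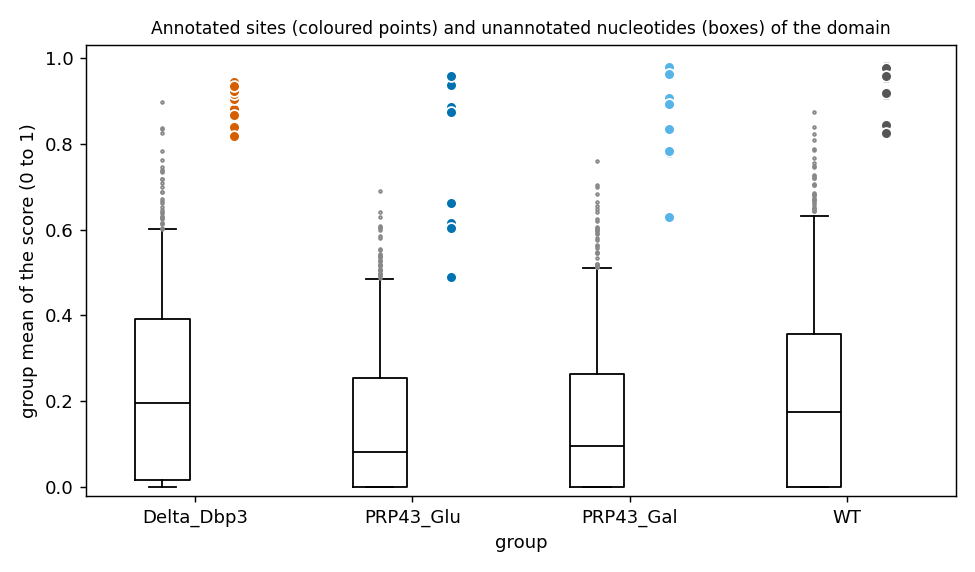
Group mean of the score (vertical axis, 0 to 1) for the 9 annotated sites (coloured points) beside the 625 unannotated nucleotides of the domain (boxes at the quartiles with a line at the median, whiskers at the 5th and 95th percentiles, dots beyond). The box medians are 0.196 in Delta_Dbp3, 0.0827 in PRP43_Glu, 0.0968 in PRP43_Gal and 0.176 in WT, and the lowest coloured point in PRP43_Glu is Am619 at 0.490.

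The 5 unannotated nucleotides with the highest WT mean were U227, A226, A353, U12 and G488. The neighbours U227 and A226 lie in the long stretch without annotated sites. U227 scored 0.856 and 0.891 in WT, as high as annotated sites, but 0 in all 4 PRP43 libraries and 0.784 and 0 in Delta_Dbp3. A226 scored 0.858 and 0.579 in Delta_Dbp3, 0.308 and 0.526 in PRP43_Glu, 0.503 and 0 in PRP43_Gal and 0.841 and 0.835 in WT. Duplicates of a group thus stood up to 0.784 apart at U227, in Delta_Dbp3. A353 had means of 0.262 in Delta_Dbp3, 0.356 in PRP43_Glu, 0.683 in PRP43_Gal and 0.823 in WT. U12, near the 5′ end of 18S, had 0.330, 0.628, 0.758 and 0.808 in the same order, and G488 had 0.762, 0.494, 0.372 and 0.787.

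A scan of the unannotated nucleotides with edgeR on read ends (a mean of at least 50 read ends, adjusted p under 0.05 and a score difference of at least 0.1) called 0 of 625 in the domain in Delta_Dbp3 against WT, where it called 0.215% of the 5117 tested in 18S and 25S. At an unadjusted p under 0.05 there were 82 of 625 in the domain, and the count over all 5117 was not taken. DESeq2 called 23 in the domain and 250 of the 5117 in all, and edgeR called 14 and 130 without Delta_Dbp3 replicate A, and 5 and 58 without Delta_Dbp3 replicate B. In PRP43_Glu against PRP43_Gal the scan called 0 of 625 in the domain and 0% of all unannotated nucleotides tested. An unadjusted p under 0.05 was found at 9 in the domain, again without a count over all. DESeq2 called 0 in the domain and 1 of the 5117 in all. The same scan also covered the 9 annotated domain sites and called 0 of them in this comparison, Am28, Am100 and Am436 included. Am28, at -0.0963, was under the minimum score difference of 0.1 and could not pass whatever its p. Without that minimum, 0 of the 9 were called as well. A count of 0 thus does not show that the unannotated nucleotides were unchanged.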

How the data were processed

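Per the labels, RNA was broken by alkali, and gel-purified fragments between 20 and 40 nt were ligated to linkers and read on an Ion Proton. Trimming and mapping tools in the submitters' processing notes are cutadapt 2.0 and Bowtie2 2.3.4.1; their settings and the reference were not given in the sources used here. The deposited counts are, per the file headers, the 5′ and 3′ read ends at each nucleotide of each library. The authors' score is a fraction. It was computed again from those counts, as 1 minus the read ends over a prediction from 6 neighbours to either side (weights 1 to 0.5, sides averaged), and negative values became 0. It differed from the deposited score by at most 5.0e-10 over 41376 values. At 6 of the 220 deposited group means the value matched, within 1e-06, a mean in which 1 library entered with its 5′ ends alone. The header marks a barcode correction, and that it means this replacement was inferred from the values. The replaced values were kept.

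Positions are those of mature 18S rRNA as the tables number them, and the chromosome of RDN18-2 comes from the RefSeq gene table. Groups follow the labels. Scores of the 55 annotated sites in the 8 libraries were fitted together with limma 3.58.1 (R 4.3.3), without a block, with empirical Bayes moderation (prior degrees of freedom 1.31, residual 4) and adjustment over the 55 sites within each of 5 comparisons. The smallest two-sided p of an exact permutation test with 2 against 2 libraries is 0.333, so calls rest on limma's normal model and its variance shared by the groups. Unannotated nucleotides were scanned with edgeR 4.0.16 quasi-likelihood on read ends, with the predicted read ends as offset, over 18S and 25S, with DESeq2 1.42.0 as an alternative. Python 3.11.15, numpy 2.4.6, scipy 1.17.1 and matplotlib 3.10.9 were used for the rest.

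All annotated sites of the domain are named, with the unannotated nucleotides that pass the scan and the 5 with the highest WT mean among those with a mean of at least 50 read ends. The domain, its sites and the tests were chosen with earlier results of these data known. Alternatives were log2 odds of scores limited to 0.01 and 0.99, a fit of the compared groups alone, a replicate block, trend and robust moderation, edgeR and DESeq2 on read ends, 2 neighbours, annotated neighbours left out, single kinds of read end, no barcode correction, a minimum difference of 0.05, at least 100 predicted read ends, and each library left out.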

Additional observations from a re-analysis of the deposited data

Results flagged for a closer look

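At 2 of the 9 domain sites the change between Delta_Dbp3 and WT and the change between PRP43_Glu and PRP43_Gal differed by a test of the difference itself in limma, which called 41.8% of all 55 sites. At Am436 the difference was 0.238 (adjusted p = 0.0271), with both PRP43_Glu libraries below both PRP43_Gal libraries and with overlapping Delta_Dbp3 and WT libraries. The starting levels were unlike there, since both PRP43_Gal libraries lay above both WT libraries (means 0.906 and 0.823). PRP43_Glu minus WT at Am436 was -0.161. At Am28 the difference of the changes was 0.0583 (adjusted p = 0.0419), and the Delta_Dbp3 libraries lay below WT and the PRP43_Glu libraries below PRP43_Gal. Over the alternatives the adjusted p ranged up to 0.103 at Am436, where it missed the threshold in 8 of 19, and up to 0.676 at Am28, where it missed in 14 of 19. Groups of 2 libraries are too small for a check of single outlying libraries.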

How the results depend on the processing

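In PRP43_Glu against PRP43_Gal, Am28 and Am436 were called under all 20 alternatives and Am100 under 17, and the count stayed between 2 and 4. The labels state no pairing of libraries by the letters A and B. Over the 55 sites the A minus B differences of 2 groups correlated between -0.276 and 0.327. Such correlations cannot show whether libraries were prepared in pairs. With the letter as a replicate block the counts were 0 in Delta_Dbp3 against WT, 3 in PRP43_Glu against PRP43_Gal, 5 in PRP43_Glu against WT and 0 for the difference of the changes. In Delta_Dbp3 against WT, log2 odds and DESeq2 each called 2 sites, and other moderation and edgeR each 1. In PRP43_Gal against WT, log2 odds called 2, only the compared groups 1, edgeR 1 and DESeq2 4, and leaving out libraries gave 0 to 1. In PRP43_Glu against WT leaving out libraries gave 2 to 5. The difference of the changes gave 1 on log2 odds, with 2 neighbours and from either read end alone (Am100 from 5′ ends, otherwise Am436), 0 with edgeR, and 0 to 2 with libraries left out. The scan of Delta_Dbp3 against WT gave 1 with no minimum difference (U494), 1 with 2 neighbours (C408), 23 with DESeq2 and 0 to 14 with libraries left out.

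Signs turned at sites that limma had not called. In Delta_Dbp3 minus WT, 5′ ends gave 0.000319 at Am100, 0.0503 at Cm414 and -0.160 at Am420, and 3′ ends gave 0.0289 at Am436, 0.0239 at Um578 and 0.00148 at Am619. Am436 also gave 0.0103 on log2 odds and 0.0135 with 2 neighbours, and -0.0662 to 0.0539 with libraries left out, and Um578 gave -0.0480 to 0.00311. In PRP43_Glu minus PRP43_Gal, Am541 gave 0.310 from 3′ ends and 0.294 without the barcode correction. Its log2 ratios of read ends, with the sign turned so that positive means fewer in PRP43_Glu, were 2.85 with edgeR and 2.85 with DESeq2. Gm562 gave -0.00718 from 5′ ends, -0.0500 from 3′ ends and -0.0346 without the correction. Its log2 ratios, with the sign turned in the same way, were -0.42 with edgeR and -0.41 with DESeq2. Am420 gave -0.0306 from 5′ ends, and Um578 0.0139 from 3′ ends. With libraries left out, Am420 ran from -0.00745 to 0.188, Gm562 from -0.00513 to 0.0917 and Am619 from -0.299 to 0.0211. The cause was not tested, apart from the correction itself. Where a library was left out, the lone library of its group was taken to vary like the other groups. The PRP43_Glu libraries had the fewest read ends in the domain, and 2 libraries a group limit every comparison.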
